A study of Macaca mulatta with 6 samples.

Results

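Interferon response and antigen presentation genes were followed in cultured spermatogonial stem cells (SSCs) of the rhesus monkey, grown with platelet-derived growth factor (PDGF) or without it. The set was chosen by gene symbol alone. It holds every listed gene whose symbol starts with IFI, IFIT, IFITM, OAS, GBP, IRF or STAT followed by a digit, and a fixed list of further antiviral and antigen presentation genes. In all, 51 of the 17795 listed genes belong to it, and 38 of them were abundant enough to be tested, among 11539 tested genes. IRF2BP1, a corepressor that binds IRF2, entered by the start of its symbol. ISG15, B2M, IFI27, IFIT2, IFI30 and IRF2BP2 were not analysed here, and the RNA sensor DDX58 is given under its current symbol, RIGI.

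The data are bulk RNA sequencing of 6 libraries, 3 from cultures with human PDGF in the medium (SSC PDGF+) and 3 from cultures in which it was left out (SSC PDGF-). All were described as monkey SSC cultures in hydrogel droplets, in a serum-containing medium that also held GDNF, EGF, LIF, bFGF and Wnt3a. No interferon, virus or other immune stimulus was named for either group. Replicate 1 of each group carries the label batch 1, and replicates 2 and 3 carry batch 2. Ages of the animals, and whether the libraries came from separate animals or cultures, were not given in the sources used here, so p-values measure only the spread between these libraries.

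Totals ranged from 10593805 to 14102697 counts per library. The first principal component, with 67.2% of the variance, separated the groups, and the second, with 20.9%, separated the batches. Replicates 2 and 3 of a group lay much closer to each other than to replicate 1. The labels name the tissue as testis. Markers of undifferentiated spermatogonia were uneven, and 7 of 15 listed markers passed the count filter. NANOS2 had no count in any library, and GFRA1, ERBB4, ZBTB16 and SALL4 stayed under the filter. Levels are given as CPM, counts scaled to the effective size of the library. The summed level of the spermatogonial markers was 439 to 541 per library. Most of it came from UCHL1 (means 263 CPM with PDGF and 185 CPM without), ID4 (131 and 163), ETV5 (85.4 and 74.6) and FGFR3 (13.7 and 57.8). The other tested markers were low, with ITGA6 at 2.90 and 6.70 CPM, DDX4 at 0.30 and 2.13 CPM and DAZL at 0.21 and 1.13 CPM. The sum of 11 stromal and peritubular markers was 17060 to 22970. The libraries therefore give levels in the cultures as a whole, and for every gene below fewer cells of a type and less RNA per cell cannot be told apart.

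Interferons are secreted signals of infection. Type I interferons bind the receptor pair IFNAR1 and IFNAR2, interferon gamma binds IFNGR1 and IFNGR2, and the kinases JAK1, JAK2 and TYK2 on these receptors phosphorylate STAT proteins. The complex ISGF3, which holds STAT2 and IRF9, binds interferon-stimulated response elements (ISREs) in promoters. The induced genes block viral entry, translation and replication, and raise the display of peptides on MHC class I and class II molecules. In the testis this system is of interest because the germ cells lie in an immune-privileged compartment.

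Promoters of these genes are the sequences through which the pathway is read, so those that carry an ISRE core are shown first. The window ran from 250 bases before to 50 bases after each annotated gene start in RefSeq on Mmul_10, and both strands were searched for GAAA, any 2 bases, GAAA. All 51 genes had a promoter, and 6 of them (11.8%) held the core, against 738 of 21107 promoters of protein-coding genes (3.5%). The runs below are given on the strand of the gene, with capitals marking each match in either orientation. IFI6 (chr1:197051416-197051567, plus strand) held 4 matches in a repeated stretch, and BST2 (chr19:16907690-16907745, minus strand) and HERC5 (chr5:86844885-86844940, plus strand) held 2 overlapping matches each. RSAD2 (chr13:101901795-101901844), IRF2 (chr5:181790492-181790539) and IFI44 (chr1:145763683-145763727), all on the minus strand, held 1 each.
IFI6: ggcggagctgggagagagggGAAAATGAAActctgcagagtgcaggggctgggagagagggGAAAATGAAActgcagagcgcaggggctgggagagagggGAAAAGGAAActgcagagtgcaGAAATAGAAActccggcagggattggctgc
BST2: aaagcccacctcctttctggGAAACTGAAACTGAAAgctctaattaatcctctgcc
HERC5: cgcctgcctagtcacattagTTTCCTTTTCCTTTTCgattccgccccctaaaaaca
RSAD2: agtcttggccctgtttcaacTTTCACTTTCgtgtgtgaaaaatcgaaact
IRF2: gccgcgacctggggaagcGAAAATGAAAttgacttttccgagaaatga
IFI44: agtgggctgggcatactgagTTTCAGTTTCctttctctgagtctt

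The second motif was the STAT site TTCNNNGAA, which reads the same on both strands. It was present in 9 of the 51 promoters (17.6%) and in 1476 of the 21107 (6.99%). The 9 genes were BST2, GBP7, IFI35, IFI44L, IRF2, IRF2BP1, IRF8, OAS1 and SAMHD1. IFI35 is shown because it fell with PDGF and kept that call without any one library (chr16:54144800-54144848, plus strand). A match is a run of letters and not a measured binding site, and no match says only that these letters are absent from the window.
IFI35: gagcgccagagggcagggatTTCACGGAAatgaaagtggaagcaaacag

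None of the 38 tested genes was called higher with PDGF and 6 fell: IRF5, IFI35, CD74, IFIT3, STAT5A and IFI6. The test was edgeR's quasi-likelihood test with a Benjamini-Hochberg adjusted p under 0.05 over all tested genes, as for every adjusted p below. Among all tested genes 7.61% were called higher and 10.7% lower, so that 15.8% of this set lower and 0% higher stands beside 18.3% of all genes called in either direction. With replicates 2 and 3 of each group summed into 1 library, the 6 calls were lost (adjusted p from 0.0564 to 0.210). At an unadjusted p under 0.05, 5 of the 38 were higher and 11 lower (13.2% and 28.9%), beside 15.7% and 17.5% of all tested genes. By DESeq2, 3 were called higher, among them OAS2 and RIGI, and 7 lower, beside 10.2% and 13.4% of all genes (23.6% in either direction). Log2 fold changes (SSC PDGF+ over SSC PDGF-) ran from -2.06 to 1.30, with 14 positive and 24 negative and a median of -0.17, where the median of all tested genes was 0.02.

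The replicate numbers follow the batch label, and blocking on them raised the number of called genes in general. With the block, 9 of the set were higher and 16 lower (23.7% and 42.1%), beside 31.1% and 29.0% of all tested genes, or 60.1% in either direction. The share higher lay below the background and the share lower above it. With a correction for GC content and length added to the block, 8 were higher and 14 lower, beside 28.0% and 28.5% (56.5% in either direction). The groups did not overlap for 15 of the 38 genes, with PDGF+ above in 5 (13.2%, against 18.2% of all tested genes) and below in 10 (26.3%, against 19.3%).

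**Figure D1:**
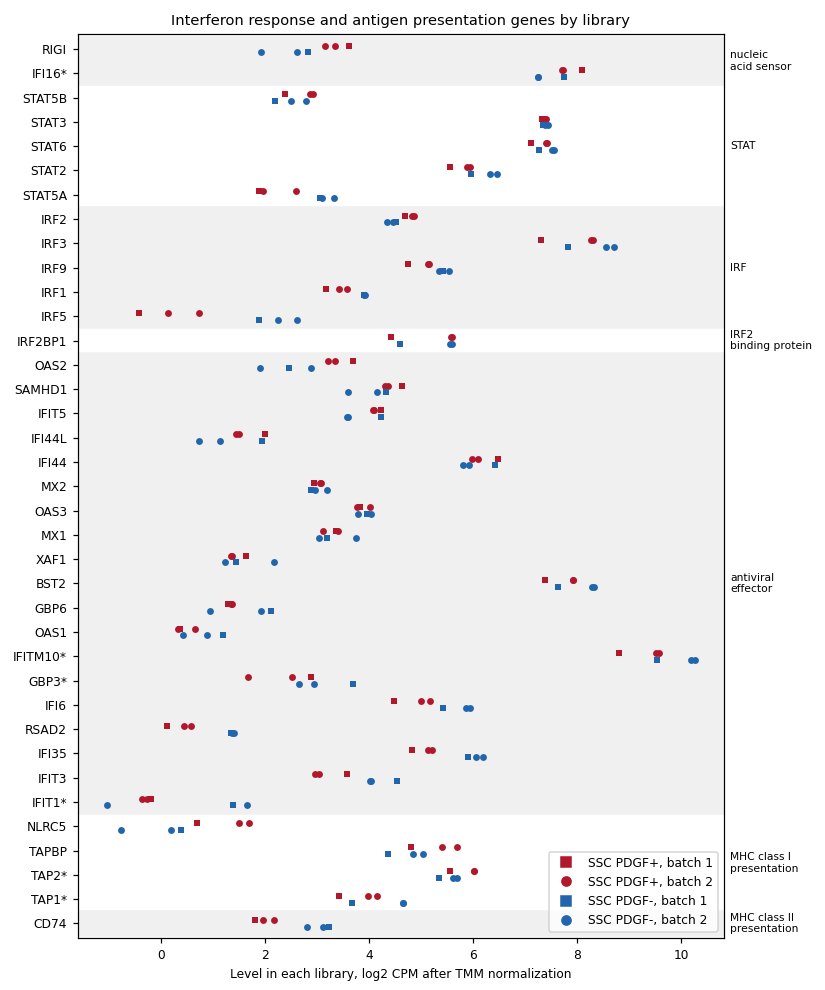
Level of 37 of the tested genes in every library, as log2 CPM after TMM normalization (horizontal axis), for SSC PDGF+ (red) and SSC PDGF- (blue). Squares are batch 1, circles are batch 2, shaded bands group the genes by role, and an asterisk marks genes whose counts equal those of another gene. IRF5, IFI35, IFIT3, IFI6, STAT5A and CD74 show all 3 red points left of all 3 blue ones, while STAT3, MX1, MX2 and OAS3 show red and blue mixed.

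**Figure D2:**
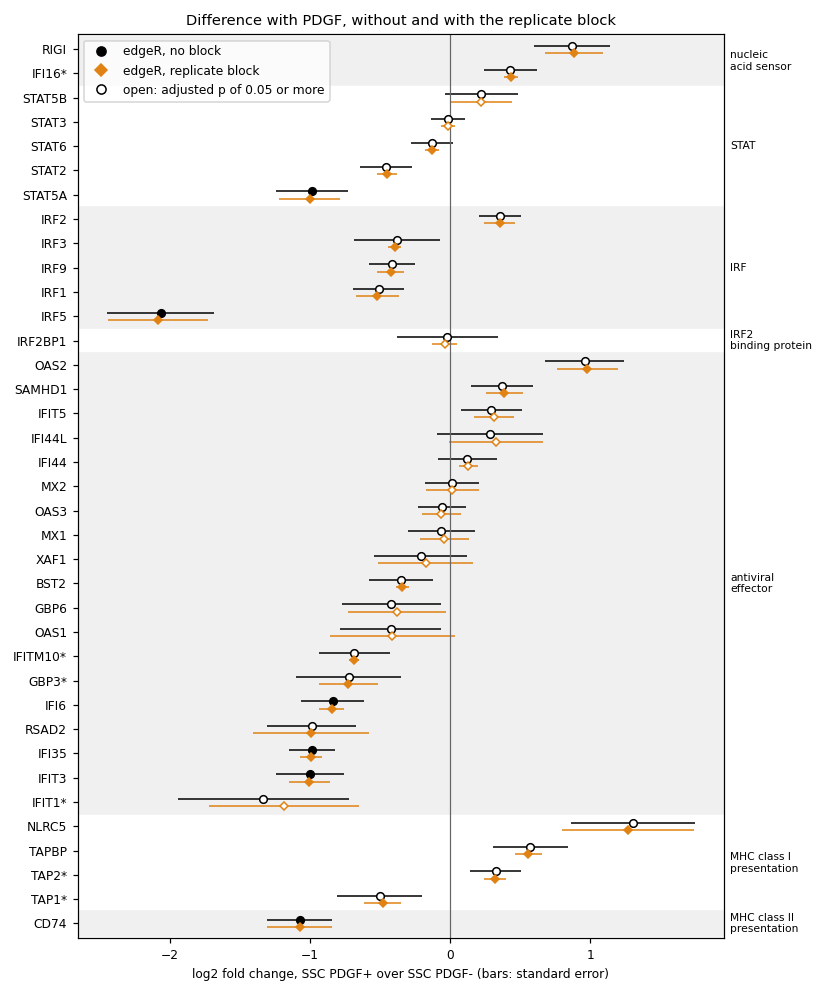
Log2 fold change of SSC PDGF+ over SSC PDGF- with its standard error for 37 of the tested genes, by edgeR without a block (black circles) and with the replicate block (orange diamonds). Filled symbols have an adjusted p under 0.05, and an asterisk marks genes whose counts equal those of another gene. The points differ little between the fits, while the bars of IRF3, IFITM10, BST2 and IFI16 are much shorter with the block, and 6 black circles are filled against 24 orange diamonds.

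The receptors and kinases upstream of the set were taken from a separate list of interferon ligands, receptors and JAK kinases, of which 10 were in the table and 7 were tested. Of these, 1 was called higher and 2 lower (14.3% and 28.6%, beside 7.61% and 10.7% of all tested genes). With the block 4 were higher and 3 lower (57.1% and 42.9%, beside 31.1% and 29.0%). The 4 include both IFNAR2 and IL10RB, which have identical counts. The interferon genes IFNB1 and IFNL1 had no count in any library. IFNAR1, the subunit of the type I receptor that holds TYK2, was at 44.6, 40.0 and 43.8 CPM in SSC PDGF+ replicates 1 to 3 and at 22.3, 17.8 and 22.7 CPM in SSC PDGF-. All 3 libraries with PDGF lay well above all 3 without it, and the log2 fold change was 1.03 (SE 0.16, adjusted p = 0.00433). The call held without any one library.

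IFNAR2 carried the same counts as its neighbour IL10RB, so the 0.56 of that pair (adjusted p = 0.0620, and 1.49e-04 with the block) belongs to neither gene alone. IFNGR2, the signalling subunit of the interferon gamma receptor, went the other way, at 116.5, 123.2 and 113.7 CPM with PDGF and 192.2, 180.6 and 182.4 CPM without it. The groups did not overlap, and IFNGR2 fell by 0.65 on the log2 scale (SE 0.12, adjusted p = 0.00841), a call that was lost without PDGF+ replicate 3 (adjusted p = 0.0548). JAK1, the kinase shared by both receptors, was at 575.7, 501.2 and 502.3 CPM against 796.2, 686.1 and 686.6 CPM. It fell by 0.46 (SE 0.13, adjusted p = 0.0400), but in 5 of 6 fits that left out a library it was not called (adjusted p from 0.0581 to 0.153).

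JAK2 and TYK2 were called with the block but not without it. JAK2 had a log2 fold change of 0.53 (adjusted p = 0.322 without and 8.15e-05 with the block), and TYK2, the partner of IFNAR1, of -0.53 (adjusted p = 0.110 and 1.20e-05). Among 7 inhibitors of the pathway, all tested, PIAS3, which restrains STAT3, was called higher (log2 fold change 0.53, adjusted p = 0.0338), and it was not called in 5 of the 6 fits without a library. The shares of this list were 14.3% higher and 0% lower, beside 7.61% and 10.7% of all tested genes. With the block they were 42.9% and 0%, beside 31.1% and 29.0%.

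The nucleic acid sensors of the set were RIGI, IFIH1 and IFI16. RIGI, a cytoplasmic sensor of viral RNA (chr15:51361635-51433265, plus strand), was at 12.2, 8.91 and 10.2 CPM with PDGF and at 7.15, 6.13 and 3.82 CPM without it. All libraries with PDGF lay above those without. The log2 fold change was 0.87 (SE 0.27) with an adjusted p of 0.0612, which became 8.16e-04 with the block. DESeq2 also called it (adjusted p = 0.0245).

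IFIH1, which encodes the related sensor MDA5, had no count with PDGF and 7 counts without it, and was not tested. With a floor of 3 counts over the PDGF+ group it was 2.91-fold lower. The exact 95% binomial interval of that fold began at 1.80. IFI16, a DNA sensor, was at 274.5, 213.2 and 209.9 CPM against 215.6, 151.3 and 151.2 CPM, so the groups overlapped through replicate 1 without PDGF. Within each batch it was higher with PDGF (log2 differences 0.35 and 0.48), and the fold change of 0.43 (SE 0.19) was called with the block but not without it (adjusted p = 1.78e-07 and 0.154). The counts listed for IFI16 are identical to those of MNDA, its paralog 150947 bases away, in all 6 libraries, so they are a value for the pair.

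Of 19 other listed genes of nucleic acid sensing, 16 were tested and only EIF2AK2 was called without the block. These shares of 6.25% higher and 0% lower stand beside 7.61% and 10.7% of all tested genes. With the block 5 were higher and 2 lower (31.2% and 12.5%, beside 31.1% and 29.0%). EIF2AK2, the kinase PKR that halts translation on double-stranded RNA, had a log2 fold change of 0.96 (adjusted p = 0.0349). It was at 16.3, 11.9 and 14.3 CPM against 9.69, 5.65 and 6.37 CPM. The groups did not overlap, but leaving out any one library except PDGF- replicate 1 raised the adjusted p above 0.05 (0.0595 to 0.121).

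STAT2, the transactivating part of ISGF3, was at 47.3, 59.3 and 61.7 CPM with PDGF and at 62.2, 88.5 and 80.3 CPM without it. PDGF+ replicate 3 and PDGF- replicate 1 were almost level, but no library with PDGF lay above one without. The log2 fold change of -0.46 (SE 0.18, adjusted p = 0.122) did not pass the test without the block and did with it (adjusted p = 1.05e-05).

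IRF9, the DNA-binding member of ISGF3, was at 27.1, 35.8 and 34.9 CPM with PDGF and 43.1, 46.3 and 40.9 CPM without. The groups did not overlap, and the log2 fold change of -0.41 (SE 0.17, adjusted p = 0.122) was called with the block (adjusted p = 7.85e-04). With the block STAT2 and IRF9 were thus both lower.

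STAT5A, which acts downstream of many cytokine and growth factor receptors (chr16:53413223-53437928, plus strand), was at 3.71, 6.02 and 3.91 CPM with PDGF and 8.38, 10.1 and 8.52 CPM without. No library with PDGF reached the lowest one without. STAT5A fell by 0.98 (SE 0.26, adjusted p = 0.0326, and 4.60e-04 with the block), and the call was lost without PDGF+ replicate 1 or 3 or PDGF- replicate 2 or 3 (adjusted p from 0.0772 to 0.118). Its paralog STAT5B lies 70 bases away and had a log2 fold change of 0.22 (adjusted p = 0.582) with overlapping groups.

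STAT3, a factor for interleukin-6 and LIF signals and the most abundant STAT gene per kilobase of transcript, stood at 159.8 to 170.1 CPM with PDGF and 161.5 to 174.9 CPM without it. Its log2 fold change was -0.02 (SE 0.12, adjusted p = 0.9395). STAT6, the mediator of interleukin-4 signals, had -0.13 (SE 0.15), and was called lower with the block but not without it (adjusted p = 0.0305 and 0.583), a call absent after the GC and length correction, where the value was -0.02, and also absent with replicates 2 and 3 summed and batch as a term (adjusted p = 0.0891). Exons of STAT6 also overlap those of NAB2 on the opposite strand. STAT4 did not pass the filter. Its counts were 4, 6 and 11 with PDGF and 37, 8 and 5 without it, so that 1 library held most of its counts.

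IRF5 gave the widest difference of the set. It is a factor that drives inflammatory cytokines and interferon genes and is best known from macrophages and B cells, and it lies at chr3:155187611-155199826 on the plus strand. IRF5 was at 0.743, 1.095 and 1.65 CPM with PDGF and at 3.70, 4.79 and 6.17 CPM without it, from 11, 14 and 22 against 45, 50 and 63 counts. Every library without PDGF held more than every library with it. It fell by 2.06 on the log2 scale (SE 0.38, adjusted p = 0.00841), the batches gave -2.27 and -1.99, and the call held in all 6 fits that left out a library (adjusted p from 0.00561 to 0.0387).

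IRF1 and IRF2 are a textbook pair, IRF1 as an activator of interferon-stimulated genes and IRF2 as its antagonist on the same elements. IRF1 was at 8.98, 10.8 and 12.02 CPM with PDGF and 15.0, 15.2 and 15.0 CPM without it. IRF2 was at 26.0, 28.4 and 29.2 CPM with PDGF against 22.8, 20.3 and 22.1 CPM. Neither pair of groups overlapped, with IRF1 below and IRF2 above in the PDGF cultures. The log2 fold changes were -0.51 (SE 0.18, adjusted p = 0.0915) and 0.36 (SE 0.15, adjusted p = 0.140), called with the block at adjusted p = 0.00604 and 0.00872. IRF1 was not called in batch 2 alone (adjusted p = 0.0569). The call of IRF2 was not kept after the GC and length correction.

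IRF3, the factor that turns sensor signals into interferon beta transcription, was the most abundant IRF, at 159.0, 309.7 and 314.8 CPM with PDGF and 226.5, 375.0 and 418.1 CPM without. Batch 1 was low in both groups, so the groups overlapped. The log2 fold change of -0.38 (SE 0.31, adjusted p = 0.423) was called with the block (adjusted p = 4.56e-07), and was -0.17 after the GC and length correction. IRF4, IRF7 and IRF8 did not pass the filter. IRF7, the factor that amplifies type I interferon, had 2 counts with PDGF and 1 without. IRF8 had 2 and 4, and IRF4 had 0 and 1.

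IRF2BP1 had overlapping groups and a log2 fold change of -0.02 (adjusted p = 0.973). The value turned positive in some fits, and with the block and the GC and length correction it was 0.29 and was called.

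Antiviral effectors were the largest class, with 22 genes, of which 19 were tested and 3 fell (IFI35, IFIT3 and IFI6). With the block 2 were higher (OAS2 and SAMHD1) and 7 lower (IFI35, IFI6, IFIT3, BST2, RSAD2, GBP3 and IFITM10). Beside these counts, 7.61% of all tested genes were called higher and 10.7% lower without the block, and 31.1% and 29.0% with it. The median log2 fold change of the class was -0.35.

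IFI35, an interferon-induced leucine zipper protein at chr16:54144858-54153324 on the plus strand, was at 28.5, 35.2 and 37.1 CPM with PDGF and 60.2, 66.8 and 72.9 CPM without it. The highest library with PDGF lay far under the lowest without. IFI35 fell by 0.99 (SE 0.16, adjusted p = 0.00523), was called in all 6 fits without a library (adjusted p from 0.00363 to 0.0297), and had -1.08 and -0.95 in the batches. With the block and the GC and length correction the value was -0.65, still called.

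IFI6, a mitochondrial protein that limits apoptosis and flavivirus replication (chr1:197051586-197057742, plus strand), was at 22.5, 36.1 and 32.1 CPM with PDGF and 42.6, 58.2 and 61.1 CPM without. The groups did not overlap, although PDGF- replicate 1 was close to the highest PDGF+ library. IFI6 fell by 0.84 (SE 0.23, adjusted p = 0.0366, and 4.59e-08 with the block). The call was lost when any library other than PDGF- replicate 1 was left out (adjusted p from 0.0565 to 0.133). IFI6 is also the gene whose promoter holds 4 ISRE cores.

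IFIT3, of the family that binds viral RNA lacking proper caps, lies at chr9:89585075-89596574 on the plus strand. It was at 11.9, 8.21 and 7.81 CPM with PDGF and 23.2, 16.3 and 16.4 CPM without, with no overlap. IFIT3 fell by 1.00 (SE 0.24, adjusted p = 0.0253, and 3.96e-06 with the block), by nearly the same amount in both batches (-0.97 and -1.02). The call was lost without replicate 2 or 3 of either group (adjusted p from 0.0535 to 0.0970).

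The groups of its 2 tested neighbours on chromosome 9 overlapped, and their differences were not tested against that of IFIT3. IFIT1, whose counts equal those of an overlapping gene, had 13, 10 and 11 counts against 32, 33 and 5 counts, with PDGF- replicate 3 below all PDGF+ libraries (log2 fold change -1.33, SE 0.61, adjusted p = 0.169). IFIT5 was at 16.9 to 18.7 CPM against 11.97 to 18.8 CPM, with 0.30 (adjusted p = 0.382).

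The OAS genes, which make the activator of RNase L, sit side by side on chromosome 11. OAS2 was at 12.9, 9.23 and 10.2 CPM with PDGF and at 5.50, 7.38 and 3.72 CPM without. All libraries with PDGF lay above all without, and the log2 fold change of 0.96 (SE 0.28) had an adjusted p of 0.0504. It was called with the block (adjusted p = 5.42e-04), by DESeq2 (0.0149) and by limma-voom (0.0444). Its neighbours OAS1 (-0.42, adjusted p = 0.449) and OAS3 (-0.06, adjusted p = 0.836) had overlapping groups, and these differences were not tested against that of OAS2.

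RSAD2, which encodes viperin, was at 1.08, 1.49 and 1.35 CPM with PDGF and 2.55, 2.59 and 2.65 CPM without. The groups were apart at 16 to 19 against 27 to 31 counts, and the log2 fold change was -0.99 (SE 0.32, adjusted p = 0.0652, and 0.0425 with the block). The call with the block was lost after the GC and length correction (adjusted p = 0.0657) and in batch 2 alone (0.121). BST2, or tetherin, which holds budding virions at the membrane, was the most abundant of the set per kilobase of transcript. It was at 167.3, 243.5 and 241.2 CPM with PDGF and 198.1, 313.7 and 319.6 CPM without, and the groups overlapped through replicate 1 without PDGF. The log2 fold change of -0.35 (SE 0.23, adjusted p = 0.318) was called with the block (3.28e-06). After the GC and length correction it was -0.05 and not called.

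MX1 and MX2, dynamin-like GTPases that are among the classic interferon-induced genes, had log2 fold changes of -0.06 (SE 0.24, adjusted p = 0.880) and 0.01 (SE 0.19, adjusted p = 0.967). MX1 stood at 8.72 to 10.56 CPM with PDGF and 8.23 to 13.5 CPM without, and MX2 at 7.70 to 8.49 and 7.39 to 9.10 CPM. Both genes had overlapping groups. IFI44, IFI44L, XAF1 and GBP6 also overlapped and were called neither without nor with the block (log2 fold changes 0.12, 0.29, -0.21 and -0.42).

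SAMHD1, which depletes nucleotides needed by retroviruses, was at 24.7, 20.5 and 19.8 CPM with PDGF and 20.2, 12.2 and 17.7 CPM without. The groups overlapped, and its 0.37 (SE 0.22) was called with the block but not without it (adjusted p = 0.0155 and 0.278), nor in batch 2 alone (0.0533) or after the GC and length correction (0.0666). GBP3, a guanylate-binding protein, was at 7.36, 3.21 and 5.71 against 12.9, 6.32 and 7.64 CPM, with -0.72 (SE 0.37, adjusted p = 0.219, and 0.00524 with the block, but 0.0813 in batch 2 alone). Its counts equal those of a neighbouring gene of the family.

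The row of IFITM10 had the highest counts of the set, at 450.3, 734.7 and 765.8 CPM with PDGF and 739.1, 1169 and 1224 CPM without. All of its 59953 counts are also listed for CTSD, a lysosomal protease that lies 2339 bases away, and they cannot be assigned to either gene. The log2 fold change of -0.68 (SE 0.25) was called with the block (adjusted p = 6.95e-13) and by DESeq2 (0.0487), but not without the block (0.0995).

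ISG20, GBP7 and IFITM5 did not pass the filter. ISG20, an exonuclease for viral RNA, stood at 5, 3 and 4 counts in SSC PDGF+ and at 5, 24 and 13 in SSC PDGF-, so replicate 1 was level and batch 2 was not. GBP7, whose counts equal those of a neighbour, had 14 counts with PDGF and 25 without, and IFITM5 had no count in any library. Of the ligases and proteases of ISG15 in the set, none passed the filter. HERC5 had 20 counts with PDGF and 27 without, HERC6 had 20 and 20, and USP18, the protease that removes ISG15, had 6 and 7.

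For MHC class I presentation 4 genes were tested and none was called without the block. NLRC5, the transactivator of class I genes, was at 1.62, 2.82 and 3.23 CPM with PDGF and 1.31, 1.15 and 0.588 CPM without. The groups did not overlap, but batch 1 gave a difference of 0.29 and batch 2 of 1.81. Its log2 fold change of 1.30 (SE 0.44) was the highest of the set and had an adjusted p of 0.0773, and 0.0248 with the block. NLRC5 rested on 24, 36 and 43 against 16, 12 and 6 counts.

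TAPBP, or tapasin, which bridges class I molecules to the peptide transporter, was at 28.0, 42.6 and 51.6 CPM with PDGF and 20.5, 28.9 and 32.7 CPM without. The groups overlapped across batches, and within both batches TAPBP was higher with PDGF (0.45 and 0.61). The log2 fold change of 0.57 (SE 0.26, adjusted p = 0.173) was called with the block (3.47e-05). Exons of TAPBP overlap those of ZBTB22 on the same strand.

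TAP1 and TAP2, the subunits of the peptide transporter, had opposite signs. TAP1 was at 10.8, 15.8 and 17.8 against 12.8, 25.1 and 25.1 CPM (log2 fold change -0.50, SE 0.30, adjusted p = 0.285, and 0.00345 with the block). TAP2 was at 47.0, 64.8 and 64.9 against 40.6, 51.6 and 48.7 CPM (0.33, SE 0.18, adjusted p = 0.249, and 0.00123 with the block). Neither value belongs to one gene, since the counts of TAP1 equal those of PSMB8, a subunit of the immunoproteasome, and the counts of TAP2 equal those of MAMU-DOB, a class II gene.

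For class II presentation CD74, the invariant chain that guards the peptide groove (chr6:147911733-147922838, minus strand), was at 3.51, 3.91 and 4.51 CPM with PDGF and 9.45, 6.99 and 8.62 CPM without it. The counts were 52, 50 and 60 against 115, 73 and 88, and the groups did not overlap. CD74 fell by 1.07 (SE 0.23, adjusted p = 0.0156, and 4.17e-04 with the block). The call was lost without PDGF+ replicate 2 (adjusted p = 0.0668) or PDGF- replicate 3 (0.0564). CIITA, the master regulator of class II genes, was not tested. Its counts were 0, 0 and 11 with PDGF and 3, 0 and 3 without it.

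CD74 and IRF5 are both known from antigen-presenting cells, so markers of such cells are given beside them. Of 13 macrophage and dendritic cell markers in the table, 4 passed the filter and none was called without the block. STAB1, a scavenger receptor, had a mean of 3.12 CPM with PDGF and 6.60 CPM without it (log2 fold change -1.08, adjusted p = 0.0548), and was called lower with the block (adjusted p = 0.00189). The summed level of all 13 markers, most of it from CD68 (means 15.8 and 12.95 CPM), was 21.9 to 25.0 CPM with PDGF and 20.7 to 32.3 CPM without. PTPRC, the common leukocyte antigen, had no count in any library. The lowest sum lay without PDGF, and the ranges of the sums overlapped. Means of CD68 and LYZ were higher with PDGF, and those of the other detected markers were lower. Most of the lower ones stood under the filter and were not tested, among them TYROBP (0.12 against 0.93 CPM), FCER1G (0.14 against 0.60 CPM) and C1QC (0.42 against 0.91 CPM). TYROBP had 0, 20 and 9 counts without PDGF, so PDGF- replicate 1 lay below every PDGF+ library. CSF1R was almost level (0.716 against 0.728 CPM). Of 8 markers of T, B and NK cells none passed the filter, with CD3E, CD3G and CD8A at 0 and summed levels of at most 1.96 CPM. The partners of CD74 had MAMU-DRA at -0.17 (adjusted p = 0.809) and the shared counts of MAMU-DMA and MAMU-DMB at -0.99 (adjusted p = 0.0880).

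Markers of other cell types also stood at different levels in the groups. The summed level of 7 Sertoli cell markers was 2191 to 2623 CPM with PDGF and 1209 to 1466 CPM without. Most of it came from CLU and CTSL, which many cell types express (log2 fold changes 0.78 and 1.16), while GATA4 had 0.12 (adjusted p = 0.694) and WT1 0.04 (adjusted p = 0.952). The summed level of 7 markers of differentiating and meiotic germ cells and spermatids was 49.1 to 77.2 CPM against 417 to 685 CPM. Nearly all of it came from TNP1 and TNP2, which encode the transition proteins of spermatids (log2 fold changes -3.31 and -3.17), and STRA8 had no count in any library. For stromal and peritubular markers the ranges were 17060 to 22620 and 20500 to 22970 CPM, but single markers differed. Of 11 tested, none was called higher and 3 lower, beside 7.61% and 10.7% of all tested genes. These were ACTA2 (log2 fold change -1.19, adjusted p = 6.03e-04), COL3A1 (-1.07, 4.21e-04) and PDGFRA with its identical counts of FIP1L1 (-0.56, 0.0439). Of 7 tested spermatogonial markers, UCHL1 was called higher (0.51), and FGFR3 (-2.07), DDX4 (-2.72) and ITGA6 (-1.20) lower. The part of these cells in the differences of IRF5, IFI35, IFIT3, IFI6, STAT5A and CD74 was not tested.

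Of 38 other interferon-stimulated genes in the table, 31 were tested, with 2 called higher and 1 lower. These shares of 6.45% and 3.23% stand beside 7.61% and 10.7% of all tested genes. The block gave 5 higher and 6 lower (16.1% and 19.4%), beside 31.1% and 29.0%. UBE2L6, the conjugating enzyme for ISG15, was at 11.3, 14.08 and 16.2 CPM with PDGF and 6.32, 8.33 and 9.31 CPM without (log2 fold change 0.80, adjusted p = 0.0469). LAP3, an aminopeptidase, had 0.49 (adjusted p = 0.0325), and APOL2, of the apolipoprotein L family, fell by 1.63 (adjusted p = 0.0130). The groups of UBE2L6 were apart, as were those of LAP3 and APOL2. Of the 6 fits that left out a library, however, only 1 called UBE2L6, 2 called LAP3 and 4 called APOL2. CXCL9 and CXCL10, chemokines that report interferon gamma, had no count in any library.

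Of 22 other antigen presentation genes 19 were tested and none was called without the block, while 5 were higher and 5 lower with it. CALR, a chaperone of class I assembly, was the example with PDGF above in both batches (log2 fold change 0.35, adjusted p = 0.212, and 4.74e-09 with the block). PSMB9, an immunoproteasome subunit, had -0.83 (adjusted p = 0.117, and 0.0165 with the block). Over the 5 lists, 5 of 80 tested genes were higher and 3 lower without the block, beside 7.61% and 10.7% of all tested genes. With the block 22 were higher and 16 lower of the 80, beside 31.1% and 29.0%. Some counts enter the 80 more than once, since IFNAR2 equals IL10RB and MAMU-DMA equals MAMU-DMB. PSMB8 and MAMU-DOB repeat the counts of TAP1 and TAP2 in the set.

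Per kilobase of transcript the order of levels in SSC PDGF- began with BST2 (261 CPM per kilobase), the shared counts of IFITM10 (180), IRF3 (159), those of IFI16 (65.7), IFI35 (65.4) and IFI6 (56.6). The ranges of IFI16, IFI35 and IFI6 over the libraries overlapped. With PDGF, BST2 (204) and IRF3 (122) stood first and second among genes with counts of their own, while IFI35 was at 33.0 and IFI6 at 31.7. By these group means both fell from above IFI44 to below it, which was at 39.1 without and 42.6 with PDGF. Single libraries did not all follow. Per kilobase, IFI6 already lay below IFI44 in PDGF- replicate 1, and IFI35 was almost level with IFI44 in PDGF+ replicate 3. The summed level of the 44 genes whose counts equal those of no other gene was 1157, 1471 and 1478 CPM with PDGF and 1340, 1678 and 1715 CPM without. Within each batch the sum was lower with PDGF, and PDGF- replicate 1 lay below both PDGF+ libraries of batch 2.

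**Figure D3:**
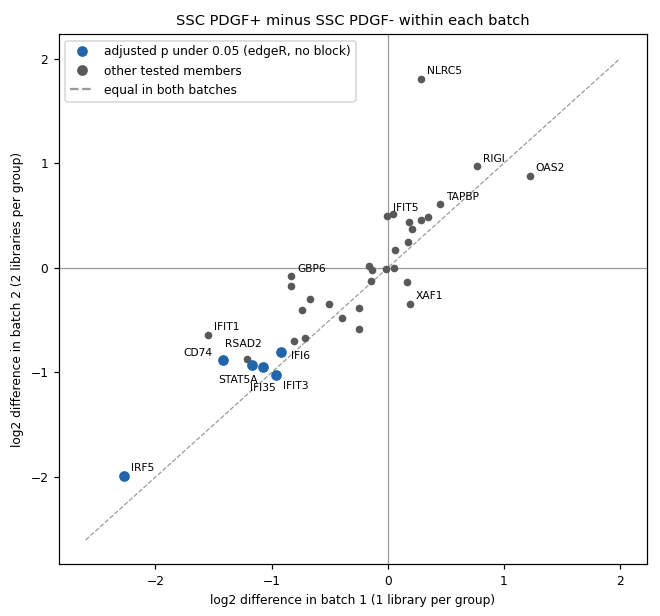
Log2 difference of SSC PDGF+ minus SSC PDGF- within batch 1 (horizontal axis, 1 library per group) and within batch 2 (vertical axis, 2 libraries per group) for 37 of the tested genes. Blue points have an adjusted p under 0.05 in edgeR without a block, and the dashed line marks equal differences. The 6 blue points lie near the line at lower left, NLRC5 lies far above it, and 32 of the 37 points have the same sign in both batches.

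The plot of differences within each batch shows that 33 of 38 genes kept their sign, beside 9793 of 11539 of all tested genes. The median difference of the set was -0.15 in batch 1 and -0.13 in batch 2. XAF1, MX1, MX2, IFIT5 and IRF2BP1 had opposite signs in the batches, and GBP6 and IFIT1 were much farther from 0 in batch 1. Batch 1 holds 1 library per group, so no test within it was possible.

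The batches differed too. For 17 of the 38 the batch difference was larger in size than the PDGF difference. That is a smaller share than the 5721 of 11238 genes with a GC value. For 14 the libraries of the batches did not overlap, a count made for this set only. The batch difference (batch 2 minus batch 1, log2) rose with the GC content of the exons, with r = 0.88 over the 38 genes and 0.77 over all 11238. These correlations are across genes of the same 6 libraries and are given as a description. The PDGF difference had r = -0.26 and -0.21 with GC content.

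**Figure D4:**
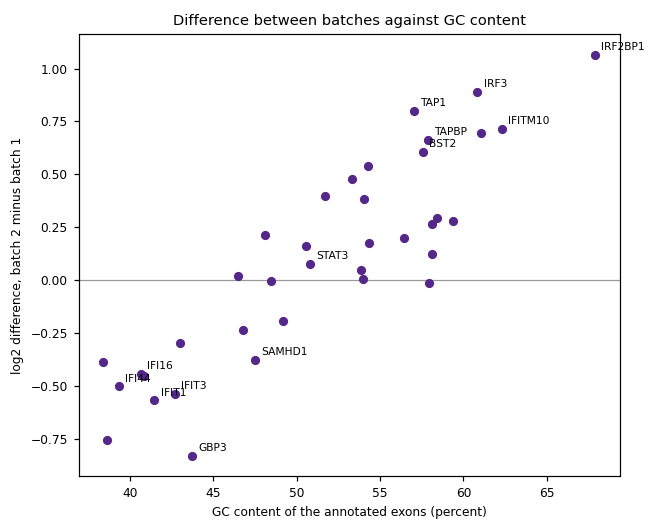
Log2 difference of batch 2 minus batch 1 (vertical axis) against the GC content of the annotated exons in percent (horizontal axis), with 1 point for each of 37 tested genes. IRF2BP1, with 67.9% GC, stands at 1.07 and IRF3 at 0.89, while GBP3, with 43.7% GC, stands at -0.83.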

How the data were processed

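The 6 libraries were grouped by their titles, and batch and replicate numbers were taken from the labels. The authors deposited expected counts per gene: 34 values of 13 genes, none in this set, were not whole and were rounded, where whole counts had been planned for. The submitters' processing notes name fastp, HISAT2 2.1.0, SAMtools and featureCounts 2.0.1, and the builds Mmul_10 and Mmul_8.0.1 without a role. Of 2686 LOC identifiers in the table, 2682 occur in RefSeq annotation release 103 of Mmul_10, the source of coordinates, lengths and promoters here. Strand settings are not given in the sources used here, so overlapping genes are uncertain.

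Counts were fitted whole in edgeR 4.0.16 (R 4.3.3; TMM, filterByExpr by group, quasi-likelihood test without a block). The SE of a fold change is its size over the root of the F statistic. CPM used TMM library sizes. Log2 differences within a batch used 0.5 added counts. Genes with at least 20 counts and identical counts in all 6 libraries formed 405 sets with 850 genes, 7 of them in this set. Alternatives included DESeq2 1.42.0, limma 3.58.1 (voom) and a replicate block. Deviations from the group means of same-numbered libraries correlated at r = 0.728, 0.35 and 0.374. Libraries of batch 2 with different numbers correlated as well (0.36 and 0.393), so these values show the batch and no pairing by number within batch 2. The batch label is shared by number, so the block is printed where it changes a call. Scripts were tested on simulated data. Intervals and floors cover counting error only.

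The genes and lists were chosen with earlier results of these data known. Every gene of the set enters the counts, and a few are not reported here by name. Full values are given for those called without or with the block and for the most abundant of each class, and, of other lists, for called genes with the largest change in each direction and for receptors and kinases. LAP3, CALR, PSMB9, MAMU-DRA and the MAMU-DM pair were chosen as examples after their values were seen. Protein sequences were not used here.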

Additional observations from a re-analysis of the deposited data

How the results depend on the processing

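Of the named genes, 34 were refitted under 19 alternatives (NLRC5 under 18, since it has under 10 counts in 1 library), namely those of the set called with or without the block, the most abundant of each class, and the called genes of other lists. All 34 kept their direction apart from IRF2BP1, which was 0.010 with every gene of at least 1 count, 0.29 with the block and GC and length correction (chosen after seeing the data), and from -0.29 to 0.28 when 1 library was left out. No call of a named gene was lost with the replicate block or batch as a term. The number called higher in the set (0) was 1 with genes of at least 1 count, 3 by DESeq2, 1 by limma-voom, 9 with the block, 9 with batch as a term, 9 in batch 2 alone, 9 with replicates 2 and 3 summed and batch as a term, 8 with the GC and length correction, and 0 to 2 without 1 library. The number lower (6) was 16, 17, 14, 17 and 14 in the block, batch term, batch 2, summed with batch and corrected fits, 0 with replicates 2 and 3 summed without a batch term, and 3 to 10 without 1 library. In the order block, batch term, batch 2, summed, summed with batch and corrected, all genes higher (878) were 3587, 3604, 3041, 206, 3669 and 3145, and all genes lower (1230) were 3347, 3387, 3085, 487, 3420 and 3199. Without 1 library they were 435 to 1284 and 726 to 1726. Of the other pathway genes, those higher (5) were 22, 22, 19, 0, 24 and 21 in the same order, 2 by upper quartile scaling, 8 by DESeq2 and 1 to 7 without 1 library, and those lower (3) were 16, 19, 12, 0, 17 and 16, and 0 to 8. The median of the set (-0.17) was -0.37 with genes of at least 1 count, -0.34 summed, -0.30 summed with batch, -0.068 corrected, -0.10 without genes of identical counts (chosen after seeing the data), and -0.27 to -0.11 without 1 library. Upper quartile scaling gave 680 genes higher and 1414 lower (32.5% higher, against 41.7%), and the calls of EIF2AK2, UBE2L6 and LAP3 were lost (adjusted p from 0.0534 to 0.0540). Summing replicates 2 and 3 leaves 2 libraries per group, and all 14 calls of named genes were lost there (IRF5 at adjusted p = 0.0564, IFI35 at 0.0882). The causes of the other changes were not tested. Counts under 100 in every library limit the precision of RSAD2, NLRC5, IRF5 and IFIT1.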
